A study of Mus musculus with 8 samples.

Results

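TALE homeobox genes encode transcription factors whose DNA-binding homeodomain carries a 3-amino-acid loop extension. Expression of 9 of them, Meis1, Meis2, Meis3, Pbx2, Pbx3, Pbx4, Pknox1, Pknox2 and Tgif1, was examined in newborn mouse neocortex that had lost Bcl11a, which encodes a zinc finger protein that shapes cortical projection neurons. The genes were chosen by name as members of the family and each was read from the single probe set that carried its symbol alone, out of 19938 genes measured.

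Cortical layers II to IV were cut by laser from 8 pups at postnatal day 2, and total RNA of each pup was hybridised to 1 Affymetrix GeneChip Mouse Gene 1.0 ST array. The 4 control pups had the genotype Bcl11a flox/+;Emx1 IRESCre/+ and the 4 mutant pups Bcl11a flox/flox;Emx1 IRESCre/+. Both groups therefore carried Cre from the Emx1 locus, which acts in the lineage of cortical excitatory neurons and much of the cortical glia, and the controls had lost 1 allele of Bcl11a in those cells. Interneurons, vessels and microglia arise from other lineages and keep the gene in both groups. Nothing in the labels ties pups to litters, so p-values measure the spread between these 8 samples.

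Values are taken as log2 expression, and the array medians over all probe sets lay between 4.83 and 4.91. Bcl11a itself fell from 10.45 ± 0.13 to 8.63 ± 0.21 (SD, n = 4; limma adjusted p = 4.90e-07), without overlap between the genotypes. A level of 4.31 serves as a floor under which a reading may be background: it is the highest that any of 3 Y-linked genes reached in arrays from pups inferred to be female by Xist. All 11 upper-layer neuron markers measured had means above it. Control 1 stood apart from the other arrays, with 16.59 on principal component 2 against -10.88 to -4.84 in the other controls and the lowest array weight, 0.556.

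Meis and Pknox proteins (the latter also called Prep) are close relatives that bind the sequence TGACAG and join with Pbx proteins on DNA. Pbx proteins are the shared partners of Meis, Pknox and Hox factors, and Meis binding helps to keep Pbx in the nucleus. Tgif1 binds a similar sequence but acts as a corepressor, among others of Smad and retinoid receptors. In the forebrain Meis2 is best known from the striatal primordium and from newborn neurons of the olfactory bulb, where it works with Pax6 and Dlx2.

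Meis2 rose in the mutant layers, and it was the one member of the 9 that passed the test. Its values were 9.83, 10.06, 10.30 and 10.16 in controls 1 to 4 and 11.07, 11.53, 11.46 and 11.24 in mutants 1 to 4. Every mutant thus lay above every control, and the lowest mutant exceeded the highest control by more than the SD of either group. The mean went from 10.09 ± 0.20 to 11.32 ± 0.21 (SD, n = 4), a log2 difference of 1.24 (SE 0.11) or 2.36-fold with a 95% interval of 1.99 to 2.79. The adjusted p was 2.88e-05 by limma over all 19938 genes. An exact permutation test, two-sided, gave 0.0286, the smallest p that 4 arrays against 4 can give. Among the 470 genes that rose, Meis2 had the 21st largest increase. In bulk tissue, a change in the number of cells with Meis2 and a change in Meis2 RNA per cell cannot be told apart.

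Across the array 4.15% of genes passed in either direction, against 1 of the 9 members. By direction, 2.36% passed as higher and 1.79% as lower, against 1 and 0 members; with arrays centred on their medians the split over all genes was 386 higher and 459 lower in place of 470 and 357. With a count of 0 falling by limma, 0 members were also lower at an unadjusted p under 0.05, and 0 fell without variance moderation. Values of mutants and controls did not overlap for 1 member, Meis2, against 9.25% of all genes. The median log2 difference of the 9 members was 0.10, against 0.02 over all genes, and 6 of the 9 lay above 0, as did 57.5% of all genes.

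**Figure D1:**
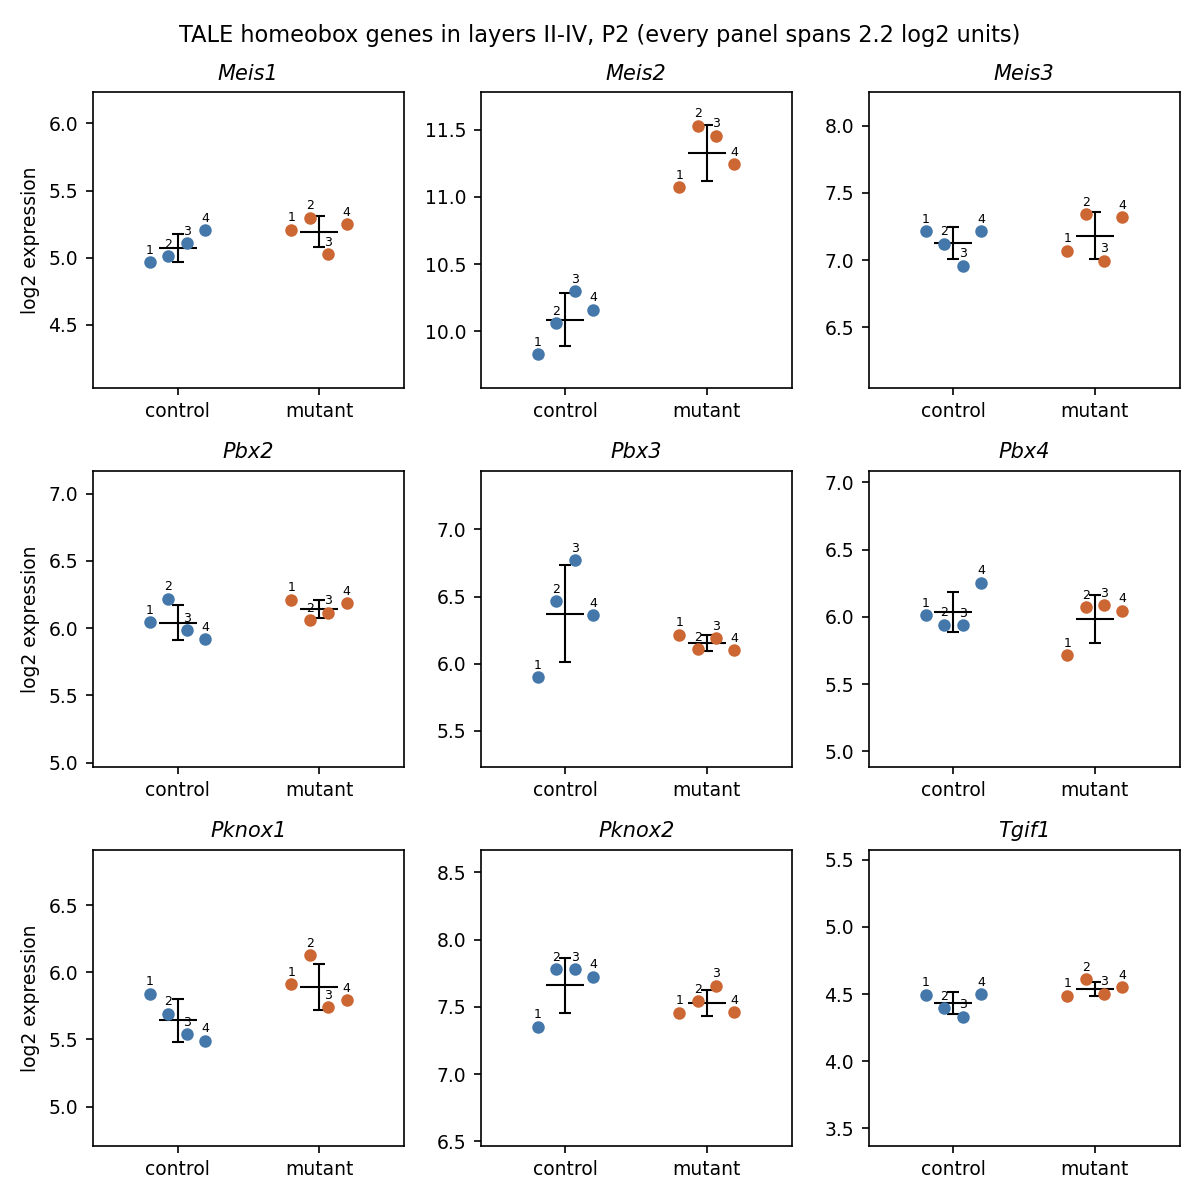
Log2 expression of the 9 TALE members in each array, with controls in blue, mutants in orange, array numbers beside the points, and bars for the mean ± SD of 4 pups; every panel spans the same range of log2 units. Meis2 separates the genotypes (9.83 to 10.30 against 11.07 to 11.53), while the groups overlap for the other members.

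Meis2 changed by more than any other member. Within each array the Meis2 reading was set against that of another member, and the gap widened from control to mutant by 0.99 (against Pknox1) to 1.46 (against Pbx3) log2 units. For each of the 8 pairs, every mutant gap was larger than every control gap. Meis2 was picked for this comparison because it had changed in these same arrays, and all 8 pairs share its readings. The wider gaps are therefore a description and not a separate test. Against Meis1, the nearest relative, the gap was 4.86 to 5.19 in controls and 5.86 to 6.43 in mutants. These gaps mix the brightness of separate probe sets, so their change between genotypes can be read but their size cannot.

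The promoter is shown because Meis2 was the member that changed. The RefSeq table of build GRCm38.p6 lists 1 start for Meis2, on the minus strand, and the 250 bases before it lie at chr2:116064620-116064869. This is inside the gene's own record, chr2:115861264-116067537, so the listed start is not the outermost one. The bases read 5′ to 3′:
Meis2: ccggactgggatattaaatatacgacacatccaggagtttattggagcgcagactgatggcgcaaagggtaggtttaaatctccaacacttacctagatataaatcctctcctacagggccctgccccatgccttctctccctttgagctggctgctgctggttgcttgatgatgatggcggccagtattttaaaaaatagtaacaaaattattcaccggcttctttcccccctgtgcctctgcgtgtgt
Both strands were searched, with overlaps allowed, for TGACAG (Meis and Pknox), TGATTGAC (a joint Pbx and Meis sequence), TGACCA (described for Bcl11a), AGGTCA (a half-site of nuclear receptors) and the DR5 retinoic acid response element. The Meis2 window holds 0 matches to these letters, and therefore carries no capitals. Of 32851 promoter windows of the same length, 15.9% hold TGACAG, 0.691% TGATTGAC, 11.4% TGACCA, 14% AGGTCA and 0.0883% a DR5 element. The table has 6 of the 9 members with 10 starts, and among these windows AGGTCA occurs at 1 of the starts of Tgif1 and the other motifs at 0.

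The other Meis genes did not pass. Meis1, a factor of eye and blood development, ranged from 4.97 to 5.21 in controls and from 5.03 to 5.30 in mutants, a log2 difference of 0.12 with a 95% interval of -0.05 to 0.29 (limma adjusted p = 0.561). Meis3, which acts in hindbrain patterning, ranged from 6.96 to 7.21 and from 7.0 to 7.34, a log2 difference of 0.05 with an interval of -0.14 to 0.25 (limma adjusted p = 0.882). The groups overlapped for both genes, and the upper bounds of these intervals lie below the lower bound of 1.0 for Meis2.

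Of the Pknox genes, Pknox1 came closest to the threshold. Pknox1, which encodes the Prep1 partner of Pbx, read 5.84, 5.69, 5.54 and 5.49 in controls 1 to 4 and 5.91, 6.13, 5.74 and 5.79 in mutants 1 to 4. Mutants 3 and 4 fell below control 1, so the groups overlapped. The log2 difference was 0.25 (SE 0.10, 95% interval 0.04 to 0.46, adjusted p = 0.237 by limma; unadjusted p = 0.0230, where 14% of all genes had one under 0.05). Without control 1 it was 0.32 (limma adjusted p = 0.0947).

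Pknox2, the Prep2 gene, read 7.35, 7.78, 7.78 and 7.72 in controls 1 to 4 and 7.46, 7.54, 7.66 and 7.46 in mutants 1 to 4. Controls 2, 3 and 4 lay above every mutant and control 1 lay below every mutant. With all arrays the log2 difference was -0.13 (95% interval -0.34 to 0.08, limma adjusted p = 0.636). Without control 1 it was -0.23 (limma adjusted p = 0.111), which still did not pass.

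**Figure D2:**
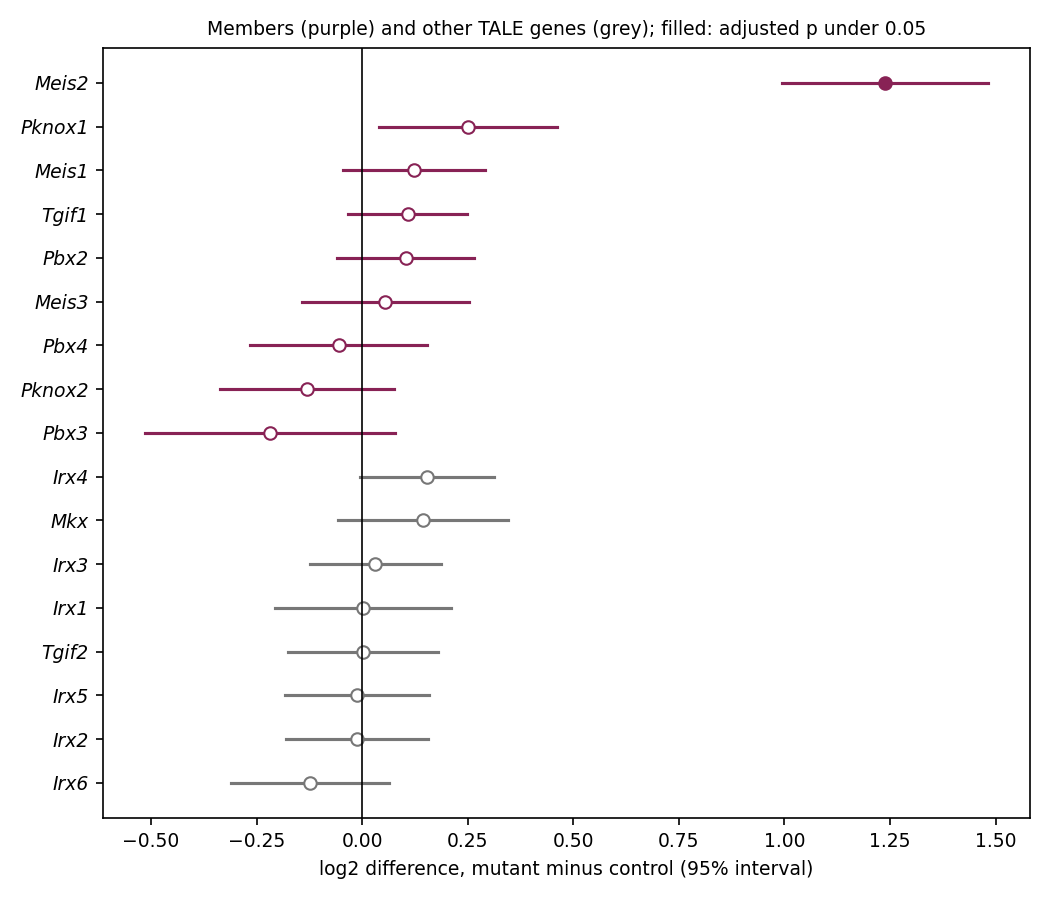
Log2 difference (mutant minus control, horizontal axis) with its 95% interval for the 9 members (purple) and the 8 other TALE genes measured (grey). Meis2, at 1.24, is the filled point that passed the test; the other 16 points lie between -0.22 and 0.25.

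Among the Pbx genes, the partners that Meis and Pknox proteins bind, the call of Pbx3 depended on 1 array. Pbx3 read 5.90, 6.46, 6.77 and 6.36 in controls 1 to 4 and 6.22, 6.11, 6.19 and 6.10 in mutants 1 to 4. The controls were spread widely (6.37 ± 0.36, SD, n = 4) around a tight mutant group (6.15 ± 0.06, SD, n = 4), with control 1 below every mutant and the other 3 controls above every mutant. With all 8 arrays the log2 difference was -0.22 (SE 0.14, 95% interval -0.51 to 0.08) and did not pass (limma adjusted p = 0.550). Without control 1 it was -0.38 (SE 0.09) and passed with an adjusted p of 0.0354 by limma, so that 2 members passed, Meis2 higher and Pbx3 lower. Without control 3, the highest control, it was -0.09. With array weights, which are lowest for control 1, it was -0.29 and did not pass (limma adjusted p = 0.256).

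Control 1 was the lowest control for Pbx3 and also for the markers Ldb2 and Reln. Of these genes, Ldb2 alone was flagged as lying far from the other controls. Ldb2, a cofactor of LIM proteins listed as a deep-layer marker, read 8.29 in control 1 and 9.58 to 9.74 in the other controls. Reln, the reelin gene of Cajal-Retzius cells and some interneurons, read 7.84 in control 1 and 8.27 to 8.50 in the other controls. The part of these differences in the Pbx3 value was not tested.

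Pbx2, a widely expressed member, ranged from 5.92 to 6.22 in controls and from 6.06 to 6.21 in mutants (log2 difference 0.10, 95% interval -0.06 to 0.27, limma adjusted p = 0.632). With 1 array left out the Pbx2 difference ranged from 0.063 without control 4 to 0.16 without control 2. Pbx4, known mainly from testis, ranged from 5.94 to 6.25 in controls and from 5.72 to 6.09 in mutants (-0.06, interval -0.27 to 0.15, limma adjusted p = 0.889). Its lowest reading was that of mutant 1, with the other mutants at 6.05 to 6.09, and its sign turned to 0.03 without that array and to 0.02 without control 4. Tgif1, the corepressor, had the lowest readings, 4.33 to 4.50 in controls and 4.49 to 4.61 in mutants, close to the floor of 4.31 (log2 difference 0.11, interval -0.03 to 0.25, limma adjusted p = 0.534). A difference of a dim probe set such as that of Tgif1 may be understated.

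**Figure D3:**
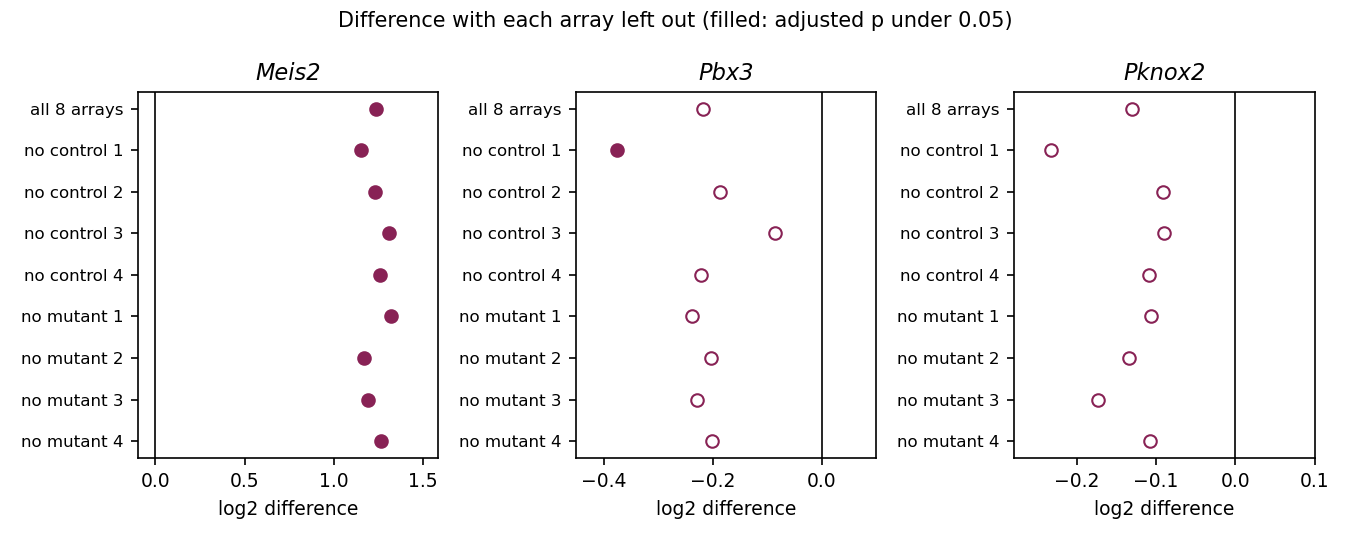
Log2 difference of Meis2, Pbx3 and Pknox2 with all 8 arrays and with each array left out in turn; filled points passed at an adjusted p under 0.05. Meis2 stays between 1.15 and 1.32 and passes each time, while Pbx3 passes only without control 1, at -0.38.

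Other TALE genes did not pass. Of 8 measured from the list written for them, 0 rose and 0 fell by limma, 0 had an unadjusted p under 0.05, and their median log2 difference was 0.0024. They are Tgif2, a relative of Tgif1, Mkx, a regulator of tendon development, and Irx1 to Irx6, the Iroquois genes of neural and heart patterning. The smallest p values belonged to Irx4 (4.42 ± 0.10 to 4.57 ± 0.10, SD, n = 4, log2 difference 0.15, limma adjusted p = 0.376) and Mkx (5.96 ± 0.16 to 6.10 ± 0.15, SD, n = 4, log2 difference 0.14, limma adjusted p = 0.571). The mean of Irx6 lay at or below the floor.

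Hox genes, the classical partners of Pbx and Meis along the hindbrain and trunk, are normally silent in the cortex. Of 37 measured, 24 had a mean at or below the floor, and 0 rose or fell by limma, with 1 at an unadjusted p under 0.05. That gene, Hoxb6, read 4.60 ± 0.04 in controls and 4.77 ± 0.11 in mutants (SD, n = 4, log2 difference 0.16, limma adjusted p = 0.290). Hoxc4 had the next smallest p and a mean below the floor, and its groups did not overlap. It read 3.53 ± 0.10 in controls and 3.67 ± 0.06 in mutants (SD, n = 4, log2 difference 0.14, limma adjusted p = 0.399). The median difference over the 37 was 0.02, the same as over all genes to 2 decimals. Some Hox genes read above the floor, such as Hoxa4 at 6.13 and Hoxb1 at 5.13 in controls. A reading above the floor therefore does not by itself show expression. The control means of Meis1 (5.07) and Rarb (4.78) lie in the same range. Those of Pknox1 (5.64), Pbx2 (6.04), Pbx4 (6.04), Cyp26b1 (5.33) and Stra6 (5.41) lie above that of Hoxb1 but below that of Hoxa4.

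**Figure D4:**
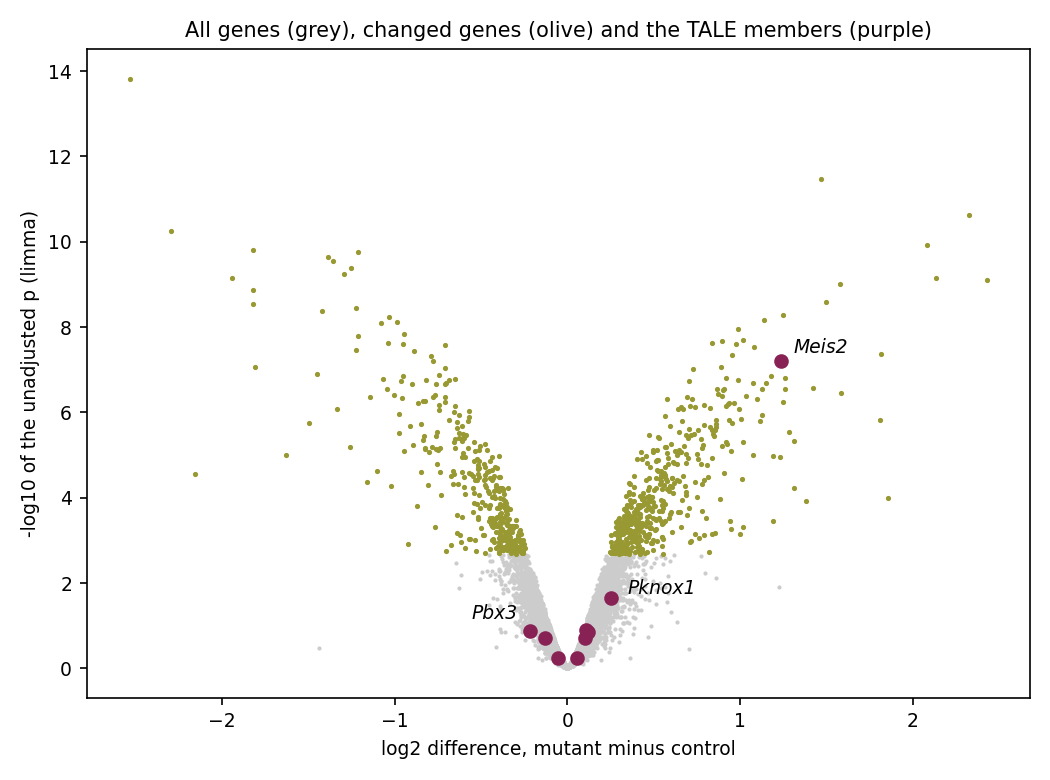
Each of the 19938 genes by its log2 difference (horizontal axis, mutant minus control) and the -log10 of its unadjusted limma p (vertical axis), with changed genes in olive and the 9 members in purple. Meis2 lies among the changed genes on the right at 1.24, and the other 8 members lie among genes that did not pass.

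Among partners and cofactors of TALE proteins, 19 were measured: 0 rose, 1 fell and 18 stayed short of the threshold, with 0 rising also at an unadjusted p under 0.05. Dlx1, a homeobox gene of interneurons, fell from 8.74 ± 0.07 to 8.28 ± 0.11 (SD, n = 4, log2 difference -0.46, limma adjusted p = 0.00189). Dlx2 and Pax6, the partners of Meis2 in olfactory bulb neurogenesis, did not pass (log2 differences of -0.18 and 0.02, limma adjusted p = 0.431 and 0.962). Tle4, a Groucho corepressor with which Meis2 competes for binding to Otx2, had a difference of 0.16 (limma adjusted p = 0.452). Smad3, a partner of Tgif1 that was singled out after its values had been seen, had -0.32 (limma adjusted p = 0.108) and passed at -0.42 without control 1 (limma adjusted p = 0.00604), and also with array weights (0.0300) and with the replicate block (0.0427).

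Among 10 genes described elsewhere as targets of Meis or Pbx factors, none passed as higher beside Meis2. There 0 rose, 1 fell and 9 stayed short of the threshold, with 0 rising at an unadjusted p under 0.05, and the median log2 difference was -0.04. Reln fell from 8.23 ± 0.28 to 7.66 ± 0.22 (SD, n = 4, log2 difference -0.57, limma adjusted p = 0.0279), though mutant 1 (7.88) lay above control 1 (7.84). Its call ended when control 2, 3 or 4, or mutant 2 or 3, was left out (limma adjusted p from 0.0702 to 0.101). Dcx, the doublecortin gene that Meis2 and Pax6 activate in newborn bulb neurons, had -0.05, and Epha8, an ephrin receptor gene controlled by Meis and Pbx in the midbrain, had 0.04 (limma adjusted p = 0.863 and 0.921). For the striatal genes Drd1, Six3 and Zfp503 the log2 differences were -0.09, 0.07 and -0.11 (limma adjusted p = 0.790, 0.790 and 0.695).

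Meis2 carries the older name Stra10 in RefSeq, given to genes stimulated by retinoic acid, and the genes that make, bind and clear this ligand were read beside it. Among the 17 measured, 3 rose, 1 fell and 13 stayed short of the threshold, with a median log2 difference of 0.04. Dhrs3, a reductase that returns retinaldehyde to retinol, read 7.28, 6.84, 6.66 and 6.48 in controls 1 to 4 and 7.97, 8.03, 7.88 and 7.90 in mutants 1 to 4. It rose by 1.13 on the log2 scale (SE 0.13, 2.19-fold, limma adjusted p = 2.00e-04), and control 1 was the control nearest to the mutants. Without variance moderation its adjusted p was 0.0517.

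Rarb, a retinoic acid receptor that retinoic acid itself induces, read 4.76, 4.68, 4.76 and 4.91 in controls 1 to 4 and 5.33, 5.71, 5.54 and 5.50 in mutants 1 to 4. All mutants lay above all controls, and the log2 difference was 0.74 (SE 0.08, 1.67-fold, limma adjusted p = 1.48e-04). Mutant 2 was the highest and mutant 1 the lowest mutant for Rarb, which also held for Meis2. The controls did not match: control 2 was lowest and control 4 highest for Rarb, but control 1 lowest and control 3 highest for Meis2. The other genes of this list that rose matched Meis2 in part among the mutants. For Dhrs3 mutant 2 was highest but mutant 3 lowest, and for Cyp26b1 mutant 1 was lowest but mutant 4 highest. The Rarb promoter is shown because it carries the response element by which the receptor's own gene is known to be induced. RefSeq (GRCm38.p6) lists 1 start on the minus strand, the 250 bases before it lie at chr14:16575477-16575726, and capitals mark the DR5 element, 53 to 37 bases before the start:
Rarb: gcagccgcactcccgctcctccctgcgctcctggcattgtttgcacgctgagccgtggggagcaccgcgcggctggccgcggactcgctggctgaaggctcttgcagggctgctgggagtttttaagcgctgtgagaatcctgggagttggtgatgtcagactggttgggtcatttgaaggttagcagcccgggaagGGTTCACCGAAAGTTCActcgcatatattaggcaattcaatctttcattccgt
Such an element occurs in 29 of the 32851 windows, and the match describes letters, not binding in this tissue.

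Cyp26b1, a cytochrome that degrades retinoic acid, rose from 5.33 ± 0.22 to 5.73 ± 0.06 (SD, n = 4, log2 difference 0.40, limma adjusted p = 0.0311), with 5.02 in control 1 and 5.36 to 5.51 in the other controls. Stra6, the cell surface receptor for the retinol carrier, fell from 5.41 ± 0.10 to 5.14 ± 0.06 (SD, n = 4, log2 difference -0.28, limma adjusted p = 0.0388). Both calls were fragile: that of Cyp26b1 ended when control 3 or mutant 2, 3 or 4 was left out (limma adjusted p from 0.0669 to 0.104) and after quantile normalization (0.0612), and that of Stra6 when control 1, 2 or 3, or mutant 2, 3 or 4, was left out (0.0594 to 0.115). With inferred sex as a covariate both were lost (limma adjusted p = 0.0595 and 0.0749), which left Dhrs3 and Rarb.

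The genes whose pattern over the 8 arrays was nearest to that of Meis2 were Nell1, Nt5dc2 and Galnt17. Likeness was measured as the root-mean-square difference after each gene was centred on its own mean, and came to 0.0896, 0.116 and 0.126 log2 units. Nell1, a secreted protein with thrombospondin-like domains, read 6.50 to 6.94 in controls and 7.62 to 8.11 in mutants (log2 difference 1.18, limma adjusted p = 5.54e-05). Nt5dc2, a nucleotidase-domain protein, rose by 1.14 and Galnt17, a glycosyltransferase, by 1.26 (limma adjusted p = 6.00e-06 and 6.04e-05). In all 4 genes control 1 was the lowest control and mutant 2 the highest mutant. These genes were selected for this likeness, so their differences are a description.

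**Figure D5:**
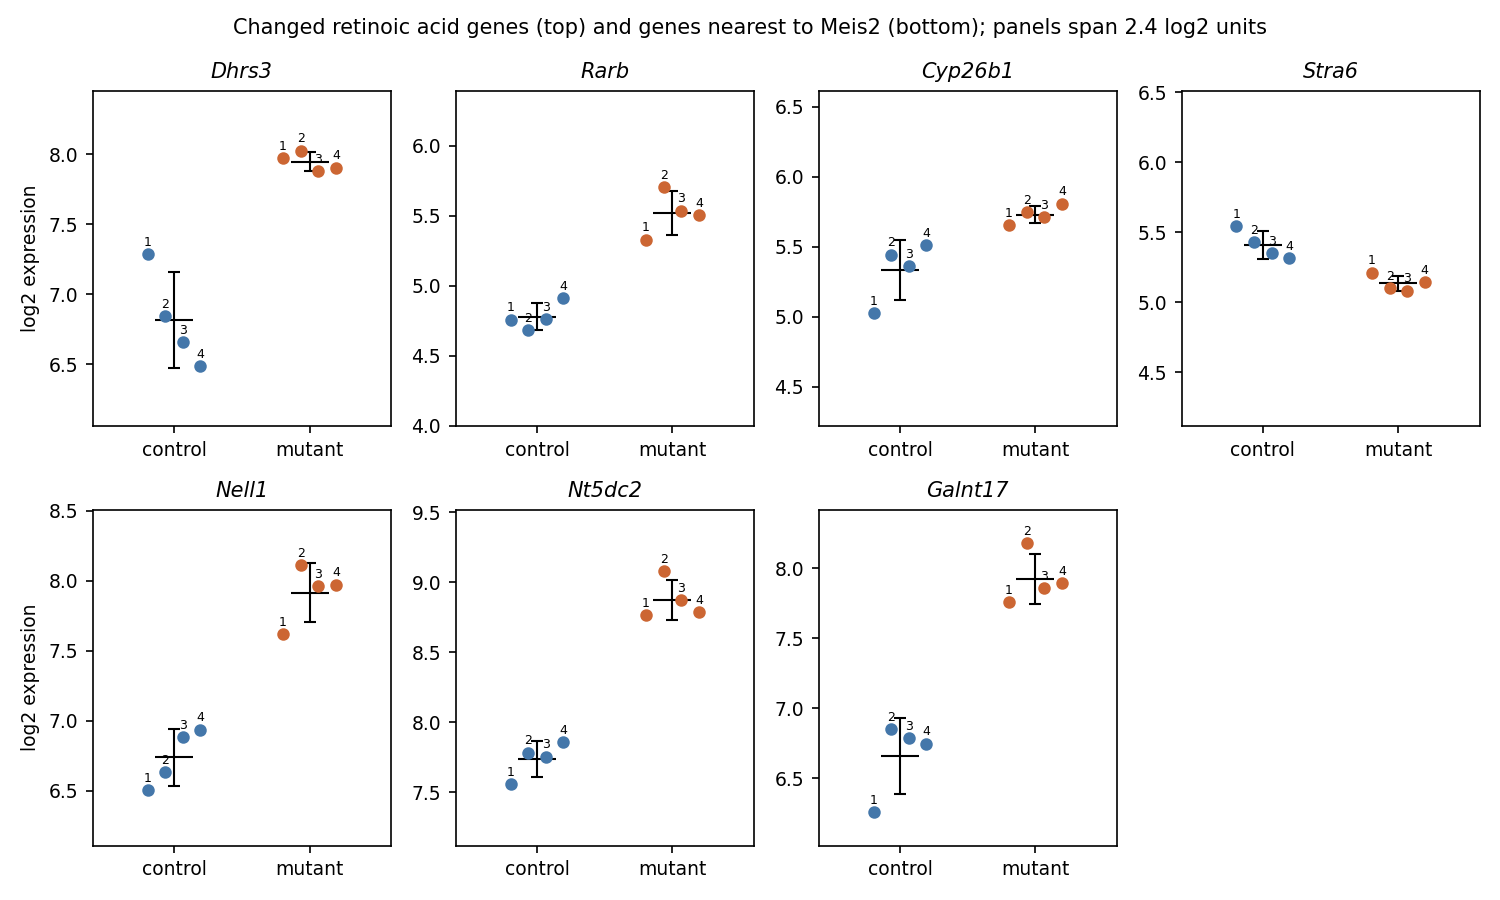
Log2 expression by array of the 4 changed retinoic acid genes (top) and the 3 genes nearest to Meis2 in pattern (bottom), drawn as points per pup with the mean ± SD of 4; every panel spans the same range. Dhrs3 and Rarb separate the genotypes widely, Cyp26b1 and Stra6 narrowly, and Nell1, Nt5dc2 and Galnt17 rise by 1.14 to 1.26.

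Markers of the cell types in which Meis2 is best known were read in the same arrays. Of 17 measured interneuron markers of 18 listed, 0 rose and 2 fell (Npy and Dlx1, log2 differences of -1.63 and -0.46), and the list's summed level, the sum of antilog values, was 2688 to 2738 in controls and 2101 to 2182 in mutants. Without Npy the sums were 2072 to 2369 and 1939 to 2060. At an unadjusted p under 0.05, 1 was higher and 8 were lower, and the median log2 difference was -0.18. The higher one, Calb2 (calretinin), was singled out after its values had been seen; it read 6.51 ± 0.76 in controls and 7.37 ± 0.17 in mutants (SD, n = 4, log2 difference 0.86, limma adjusted p = 0.122). The call of Npy ended without variance moderation (adjusted p = 0.0989). Of 11 measured striatal markers of 13 listed, 1 rose (Rarb) and 0 fell, with summed levels of 819 to 957 in controls and 780 to 889 in mutants and with Drd2, Isl1 and Ikzf1 at or below the floor. Of 11 progenitor markers 0 rose (1 was higher at an unadjusted p under 0.05) and Vim fell (-0.36), with Eomes at or below the floor and summed levels of 1393 to 1739 and 1421 to 1783. The call of Vim ended when control 2 or 3, or mutant 2 or 4, was left out (limma adjusted p from 0.0726 to 0.0814). The part of these lists in the rise of Meis2 was not tested.

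Some markers of projection neurons differed by genotype in the same arrays. Of 12 deep-layer markers 1 rose (Ldb2, 1.38), 1 fell (Ntsr1, -0.90) and 10 did not pass, with a median log2 difference of 0.12 and 0 markers at the floor. Their summed level was 2311 to 3268 in controls and 3631 to 4438 in mutants, but without Ldb2 it was 1998 to 2419 and 2248 to 2576, which overlap. The call of Ldb2 ended with trend and robust variances (limma adjusted p = 0.116). Of 11 upper-layer markers measured of 12 listed, 0 rose (1 was higher at an unadjusted p under 0.05), 5 fell and 6 did not pass, with a median of -0.27. The 3 largest falls were those of Cux2 (-1.29), Mdga1 (-1.07) and Pou3f2 (-0.38), and the summed level was 7011 to 7517 in controls and 5979 to 6842 in mutants. Without Cux2 it was 6560 to 7028 and 5784 to 6631.

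Of 8 genes expressed by neurons in general, 0 rose (0 also at an unadjusted p under 0.05), 2 fell and 6 did not pass by limma, with a median log2 difference of -0.0069. Snap25, which encodes a protein of synaptic vesicle release, fell by 0.82 and Rbfox3, the gene of the neuronal antigen NeuN, by 0.63 on the log2 scale (limma adjusted p = 6.14e-05 and 2.00e-04). The list summed to 15976 to 16876 in controls and 15335 to 15925 in mutants, and without Snap25 to 14863 to 15802 and 14813 to 15307. Of 6 subplate markers 1 fell and 5 did not pass, with Cplx3 and Nxph4 at or below the floor. That gene, the nuclear receptor Nr4a2, read 8.15 in control 2, 5.85 to 6.92 in the other controls and 4.47 to 4.82 in mutants (log2 difference -2.15, limma adjusted p = 0.00212). Its call ended with trend and robust variances (limma adjusted p = 0.0705) and without variance moderation (0.137). The list summed to 232 to 442 in controls and 174 to 197 in mutants, and without Nr4a2 to 159 to 175 and 148 to 170.

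Of 6 Cajal-Retzius markers 1 fell (Reln). At an unadjusted p under 0.05, 3 were lower, Reln among them, and 0 higher. Their summed levels were 523 to 695 in controls and 445 to 509 in mutants. Without Reln they were 293 to 334 and 261 to 281, which do not overlap. Of 10 endothelial and pericyte markers 1 fell and 9 did not pass, with 1 difference above 0, a median of -0.12 and summed levels of 1108 to 1220 and 1006 to 1145. Abcc9, a potassium channel subunit gene of pericytes, was the one that fell (-0.32, limma adjusted p = 0.0331), and its call ended when control 1, 3 or 4, or mutant 1, 2 or 4, was left out (limma adjusted p from 0.0699 to 0.109). Markers of astrocytes (9 measured, median -0.14), oligodendrocyte lineage (7, -0.05), microglia (8, 0.0061) and meninges (9, -0.15) had 0 calls by limma, with 2, 2, 1 and 1 at an unadjusted p under 0.05. Their summed levels in controls and mutants were 5853 to 6459 and 5518 to 6485 for astrocytes, and 615 to 734 and 547 to 629 for the oligodendrocyte lineage. Those of microglia were 186 to 195 and 180 to 195, and those of meninges 330 to 412 and 306 to 368. At or below the floor were Mog of the oligodendrocyte list, C1qb, Tmem119, P2ry12 and Aif1 of the microglia list, and Lum, Ogn and Aldh1a2 of the meningeal list. The part of these differences in the rise of Meis2 was not tested.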

How the data were processed

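The authors deposited 1 column of values per array, read here as log2 expression on a common scale; per the labels, BRB-ArrayTools was used. How background, normalization and probe summarisation were handled, and the log base, is not stated in those labels, and another base would alter fold changes but not tests. Of 35556 probe sets, 21789 had 1 gene symbol in the platform annotation, 1621 several and 12146 none; those with 1 symbol were kept, the brightest over 8 arrays where a gene had several, which gave 19938 genes without a filter on dim ones. Each TALE member had 1 probe set.

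The fit used limma 3.58.1 (R 4.3.3) with genotype as its single term, moderated variances and two-sided tests, with Benjamini-Hochberg adjustment over all genes. "Rose", "fell" and "passed" mean an adjusted p under 0.05; differences are mutant minus control. On simulated data for this comparison and all 19938 genes the fit called 52 of 67 genes given a log2 change of 0.5 and 67 of 67 given a change of 1. Of its 194 calls, 9 were of genes given no change. The noise was drawn independently for each gene and array, without an array that stands apart as control 1 does. Recovery in the real arrays may therefore be lower. Having 4 arrays a group limits the precision.

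Named beside the members were Bcl11a, up to 4 changed genes of each pathway list (or the 2 with the smallest p), up to 3 changed genes of each cell type list and the 3 genes nearest to a changed member. Pathway genes named beyond this rule (Hoxa4, Hoxb1, Dlx2, Pax6, Tle4, Smad3, Dcx, Epha8, Drd1, Six3, Zfp503), and Calb2 among the markers, were chosen after their values had been seen. Sums of marker levels without 1 gene leave out the changed gene of largest difference in the list, a choice made after the values had been seen. The members and lists were chosen with earlier results of these data known. Promoter sequences are from RefSeq, build GRCm38.p6.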

Additional observations from a re-analysis of the deposited data

Results flagged for a closer look

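In 3 of the 70 groups of 4 arrays examined, 1 array lay far from the other 3, where chance alone gives about 1 group in 20. These groups were those of the members, the genes named by rule and Smad3. The other genes named after their values had been seen were not examined. Pknox2 in control 1 read 7.35 against 7.72 to 7.78 in the other controls. Pbx4 in mutant 1 read 5.72 against 6.05 to 6.09 in the other mutants. Ldb2 in control 1 read 8.29 against 9.58 to 9.74 in the other controls.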

How the results depend on the processing

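Over 21 alternative settings Meis2 kept its direction and its call, with log2 differences from 1.15 to 1.32 and adjusted p from 8.84e-06 to 0.0266, the latter without variance moderation. With each array left out in turn the members passing numbered 1 to 2, the second being Pbx3 without control 1, and the log2 difference ranged from -0.38 to -0.086 for Pbx3, from -0.0012 to 0.12 for Meis3 and from -0.091 to 0.033 for Pbx4. Of 187 member results under the alternatives, 183 kept sign and side of the threshold and 3 changed sign, all in genes that did not pass. Without variance moderation 249 genes passed in all (123 higher, 126 lower), and at an adjusted p under 0.01 there were 447 (243 higher, 204 lower), which follows from the stricter limit; the cause of the first fall was not tested. With the replicate number as a block 987 genes passed, Meis2 among them (adjusted p = 9.22e-06). The numbers were not taken to pair the pups, because nothing in the labels says that they do. Same-numbered arrays deviated together with correlations of 0.109, 0.0558, 0.295 and 0.149 across genes. Controls 1, 3 and 4 correlated best with the mutant of the same number, and control 2 with mutant 1. Whether same-numbered pups shared a litter or a day was not tested. Meis1 and Tgif1 have no value without the dimmest 50% of genes. No member had several probe sets, so tests of single probe sets or their means changed its p alone. The low brightness of Tgif1, near the floor, and of Meis1, within the range of Hox readings, limits what could be detected. Pknox1, Pbx2 and Pbx4 share this limit in part, since their control means lay below that of Hoxa4.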
